A study of Mus musculus with 10 samples.

Results

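Complement is a cascade of plasma and tissue proteins that tags surfaces for removal and recruits phagocytes. In the classical pathway the C1 complex, in which C1q binds the target and C1r and C1s are the proteases, cuts C4 and C2. Their fragments form an enzyme that splits C3, the protein on which all routes converge. In the alternative pathway factor D cuts factor B, which with C3b forms a second C3-splitting enzyme. Decay-accelerating factor (CD55) takes these enzymes apart, CD59 blocks the membrane pore, and the receptor C3aR binds the fragment C3a. In epithelia and in brain tissue, C3, C4 and factor B are known as genes that inflammatory signals can raise.

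The 9 genes described here are C3, C4b, C2, Cfb, Cfd, C1ra, Cd55, Cd59a and C3ar1, complement factors and regulators other than the C1q chains. They were taken by gene symbol from the authors' deposited table, and 9 of its 24421 genes matched. The study sequenced poly(A)-selected RNA of olfactory epithelium, the sensory lining of the nose, from untreated C57BL/6 mice at an age of 6 months. It compared 4 libraries from mice labelled Apoe3 with 6 from mice labelled Apoe4, which the series title gives as human alleles. Apolipoprotein E is a carrier of lipids. How the alleles were put into the mice is not given in the sources used here, and genotype is the only label that differs between the groups. The authors' deposited table gives 1 mean over all 10 libraries, a fold and a test for each gene, so no value per animal is shown and the spread of each library cannot be printed. Positive folds are higher in Apoe4, as worked out from genes with 1 read (given with the processing). In whole tissue, fewer cells of a type and less RNA per cell cannot be told apart.

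The tissue carried the markers its label calls for. Omp, the marker of mature olfactory neurons, had a mean normalized count of 113676 per the authors' deposited table, and Cyp2g1, a cytochrome P450 of supporting cells, one of 63585. Depth, estimated from inferred size factors because read totals are not given, ran from about 14900000 to 20100000 reads per library. It overlapped between the groups. The groups also differed in sex-linked transcripts: per the authors' deposited table Eif2s3y, on the Y chromosome, had a log2 fold change of -3.72. Xist, made from the inactive X, had one of 6.41 per the authors' deposited table, which gives it no p. Xist was thus higher in Apoe4 and Eif2s3y lower. The part of sex in the folds below was not tested, and without values per library it cannot be told apart from that of genotype.

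None of the 9 complement genes passed the authors' DESeq2 test between Apoe4 and Apoe3. Of the 9, 8 were tested after the authors' filter on low means, and 0 of these 8 had an adjusted p under 0.05, against 0.779% of the 16050 genes tested. One of the 8, C4b, had an unadjusted p under 0.05 (12.5%), close to the 10.3% of all genes tested that had one. With Cfd, which was marked low, 2 of the 9 had one (22.2%), against 8.36% of all genes with a p. The members' shares were not tested against those of all genes. Folds were positive for 6 of the 8 and negative for 2, with a median log2 fold change of 0.08 beside 0.00 over all genes tested. The folds ran from -0.04 for Cd59a to 0.25 for C4b. All folds per the authors' deposited table are shrunk towards 0 by their model, and the intervals below rest on the shrunken folds and their errors. Undoing the shrinkage approximately gave 2 solutions for each of the 8, for example -0.05 and -0.23 for Cd59a and 0.34 and 0.89 for C4b. By the form of the calculation both lie farther from 0 and keep the sign, so they are no check of direction. At the error deposited for each gene, a rise of between 21.2% for Cd59a and 29.5% for C3ar1 on that shrunken scale would have been needed to pass.

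**Figure D1:**
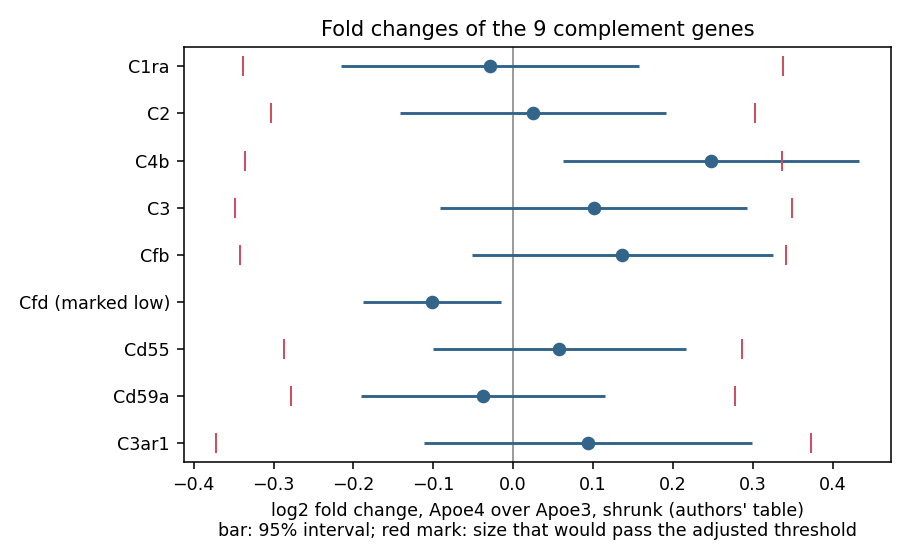
Log2 fold change of each complement gene in Apoe4 over Apoe3 on the x axis, as deposited, with its 95% interval as a bar, and the size that would pass the adjusted threshold at that error as red marks (none for Cfd, which the authors marked as low and did not adjust). The interval of C4b (0.06 to 0.43) excludes 0 and its point lies short of the red mark, while the other 7 tested genes have intervals that include 0. The interval of Cfd (-0.19 to -0.02) excludes 0 as well, without an adjusted p.

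Upstream sequence is shown for 2 members, C3 because every route of the cascade passes through it, and Cfd because it had the lowest level of the 9 and a negative fold. Both are the 250 bases before the annotated gene start, from RefSeq on GRCm38.p6, written 5′ to 3′ on the strand of the gene, with capitals at matches to any of 5 motifs. The motifs, searched on both strands, were TTNNGNAA for C/EBP factors, GGGNNTTCC for NF-kB, TTCNNNGAA for STAT factors, GAAANNGAA for the interferon-stimulated response element, and TATAAA for the TATA box.
C3, minus strand, chr17:57228137-57228386: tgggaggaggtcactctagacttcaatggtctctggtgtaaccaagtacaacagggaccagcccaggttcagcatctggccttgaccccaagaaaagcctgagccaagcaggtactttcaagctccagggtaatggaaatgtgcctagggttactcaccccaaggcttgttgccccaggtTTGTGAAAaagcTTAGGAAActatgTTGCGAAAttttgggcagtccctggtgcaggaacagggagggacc
Cfd, plus strand, chr10:79890603-79890852: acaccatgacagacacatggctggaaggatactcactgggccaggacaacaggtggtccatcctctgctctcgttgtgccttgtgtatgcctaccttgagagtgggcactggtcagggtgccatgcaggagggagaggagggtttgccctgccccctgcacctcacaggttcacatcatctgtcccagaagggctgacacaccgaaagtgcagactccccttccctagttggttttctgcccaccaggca

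The C3 stretch held 3 C/EBP matches, beginning 70, 58 and 45 bases before the start, and no match to the other 4 motifs. In the Cfd stretch none of the 5 motifs matched, which says only that these letters are not in this window. Among 32851 RefSeq promoters of the same length, 36.8% held the C/EBP letters, 4.98% those of NF-kB, 7.02% those of STAT, 7.13% those of the interferon element and 12.4% the TATA box. The letters used for NF-kB and for the interferon element were chosen after matches of other forms, of 10 letters each, had been seen. The first NF-kB form, GGG and CC with any 5 bases between, matched 4 times in the C3 stretch and 1 time in the Cfd stretch, and 45.8% of the promoters held it. The first form of the interferon element, GAAA repeated with any 2 bases between, matched in neither stretch and in 2.98% of the promoters. The absence of an NF-kB match in C3 and Cfd thus depends on the form searched. The C/EBP pattern is common, and 3 matches were not set against chance. A match is only a run of letters and shows no binding. Of the 9 members, 6 matched the RefSeq promoter table (C3, Cfd, C1ra, Cd55, Cd59a and C3ar1). C4b, C2 and Cfb were not among the matches.

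Among the members, the membrane regulators were the most abundant per length and C3ar1 and Cfd the least. Levels here are mean normalized counts over all 10 libraries per the authors' deposited table, divided by the length of the longest GENCODE transcript in kilobases (kb). Cd55 stood at 535 per kb and Cd59a at 431 per kb, above 85.4% and 81.2% of the tested genes with a length. C2 followed with 147 per kb and C1ra with 117 per kb, near the median of 126 per kb over all tested genes. C3 (85.4 per kb), Cfb (72.5 per kb) and C4b (70.0 per kb) lay close together below that median. C3ar1, at 14.2 per kb, and Cfd, at 6.41 per kb, came last. Because the deposited means carry no spread, it is not known which neighbours in this order differ beyond their error.

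**Figure D2:**
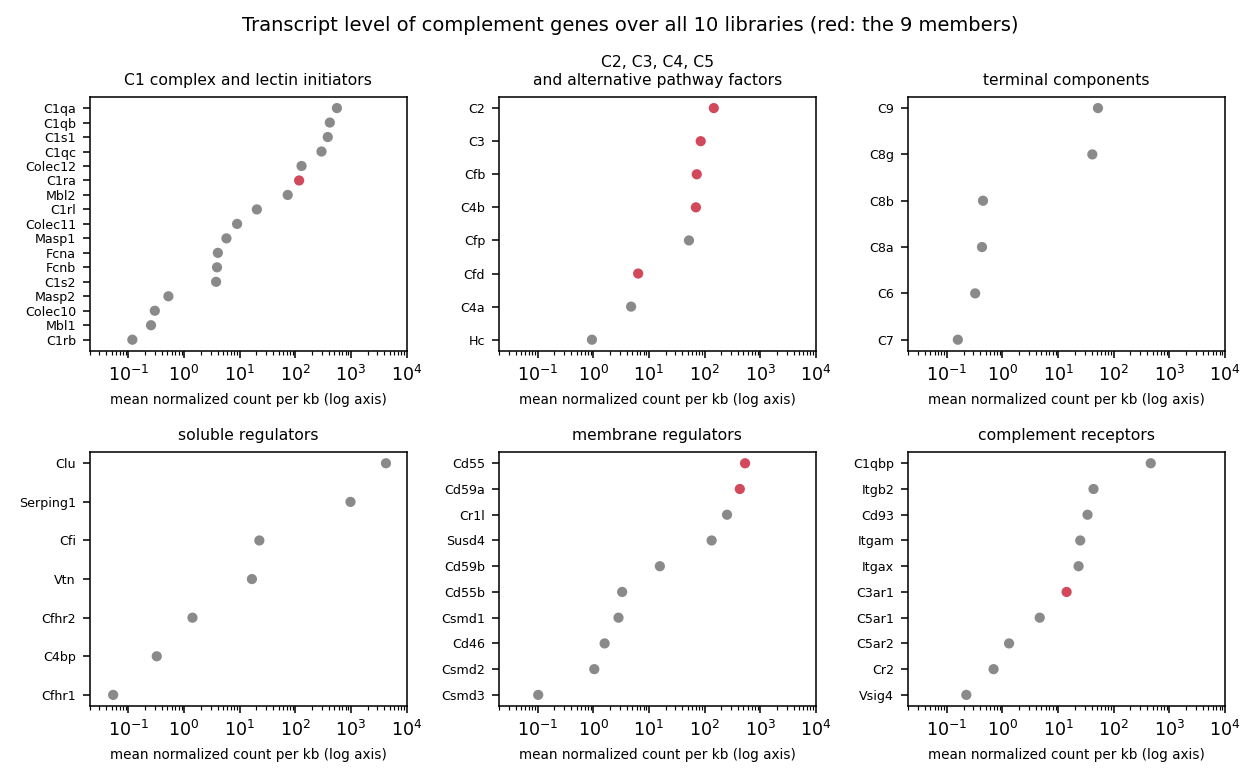
Mean normalized count per kb of transcript over all 10 libraries (x axis, log scale) for complement genes in 6 role groups, members in red (1 listed gene is not shown). Clu has the highest level, at 4259 per kb, and among the membrane regulators Cd55 and Cd59a are above the other 8 genes.

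C1ra codes for C1r, the first protease of the classical pathway, and lies on chromosome 6 (124512621 to 124523440, GRCm38, protein coding). Its mean normalized count per the authors' deposited table was 349, with a log2 fold change of -0.03 (SE 0.09, 95% interval -0.22 to 0.16, adjusted p = 0.942). C1s1, the gene of its partner protease C1s, lies 6.9 kb away and stood at 0.03 per the authors' deposited table (SE 0.09, adjusted p = 0.939). No difference between the genotypes was detectable for either protease at this depth. C1rb, a near copy of C1ra, had a mean of only 0.286 per the authors' deposited table. Of the 150-base windows in the longest C1ra transcript, 26.3% occur word for word in C1rb, so reads from these stretches could have been dropped or split in the authors' counting.

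C4b, which supplies C4, the first substrate of C1s, came nearest to a difference (chromosome 17, 34728139 to 34743902). Its mean normalized count was 377 and its log2 fold change 0.25 per the authors' deposited table (SE 0.09, 95% interval 0.06 to 0.43, unadjusted p = 0.00879 by the DESeq2 Wald test). The adjusted p of 0.291 missed the threshold, and 484 of the 16050 genes tested had a statistic at least as far from 0. On the shrunken scale the value is a level 18.7% higher in Apoe4, where 26.3% would have been needed to pass. Undoing the shrinkage approximately gave 2 solutions for C4b, 26.9% and 85.1% higher, and the deposited error does not say which holds. The copy C4a, which lies 65.2 kb from C4b, was at -0.01 with a mean of 25.7 per the authors' deposited table (adjusted p = 0.988). Only 8.26% of the 150-base windows of C4b occur in C4a, so at that length most of its sequence can be told from that copy.

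C2, whose product joins C4b fragments in the C3-splitting enzyme, is on chromosome 17 (34862602 to 34882100). It had a mean of 388 and a log2 fold change of 0.02 per the authors' deposited table (SE 0.09, 95% interval -0.14 to 0.19, adjusted p = 0.947). On the shrunken scale a rise of 23.4% would have been needed to pass at this error. Cfb, the gene of factor B, ends 87 bases from C2 (34856374 to 34862514), and its product takes in the alternative pathway the place that C2 has in the classical one. Cfb had a mean of 199 and stood at 0.14 per the authors' deposited table (SE 0.10, 95% interval -0.05 to 0.32, adjusted p = 0.653). GENCODE vM21 also annotates Gm20547 across both genes on the same strand. Its exons cover 79.5% of the exon bases of Cfb and 42.8% of those of C2. Whether the authors' annotation held this model is not given in the sources used here, so the levels of C2 and Cfb carry that uncertainty.

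C3, the protein that both pathways cut, is on chromosome 17 as well (57203967 to 57228136). Its mean normalized count was 438 and its log2 fold change 0.10 per the authors' deposited table (SE 0.10, 95% interval -0.09 to 0.29, adjusted p = 0.762). On the shrunken scale a rise of 27.3% would have been needed to pass at its error. Without shrinkage the 2 solutions were 0.15 and 0.32, the second above the interval, so the interval does not bound the unshrunken fold. No 150-base window of C3 occurs in another gene, and no other annotated exon overlaps it.

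Cfd codes for factor D, also known as adipsin because fat cells secrete it (chromosome 10, 79890853 to 79892655). With a mean normalized count of 5.91 per the authors' deposited table it fell under their filter, was marked low and carried no adjusted p. Its deposited log2 fold change was -0.10 (SE 0.04, unadjusted p = 0.0203 by the DESeq2 Wald test), and with no filter on the mean its adjusted p was 0.482, so Cfd was not called either way. At so low a count the deposited fold is strongly shrunk. Undoing the shrinkage approximately gave -2.24 on the log2 scale, a change of -78.9% in level. That estimate rests on about 6 reads per library, and no error was worked out for it.

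Other fat cell genes were at negative values beside Cfd. Of 10 adipocyte markers 9 had a fold per the authors' deposited table, 8 negative and 1 positive, and Lep, which codes for leptin, was listed at 0. Of these 9, 6 had an unadjusted p under 0.05, against 8.36% of all genes with a p. Car3, a carbonic anhydrase abundant in fat, was the 1 marker of the list that fell past the threshold, with a log2 value of -0.38 per the authors' deposited table (adjusted p = 0.0402). Car3 was not called with no filter on the mean, with the trend of the statistic with transcript length removed, or against a fold of 1.2. Adipoq, the gene of adiponectin, had a mean of 16.0 and stood at -0.15 (adjusted p = 0.348), and Fabp4, a fatty acid carrier, had a mean of 22.7 and stood at -0.11 (adjusted p = 0.413) per the authors' deposited table. Without shrinkage these values came to about -1.64 for Adipoq and -1.90 for Fabp4. The adipocyte list summed to a mean of 605 normalized counts, 151 of them from Car3 and 228 from Pparg, a transcription factor not limited to fat. What fat tissue in the dissections contributed to the value of Cfd was not tested.

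**Figure D3:**
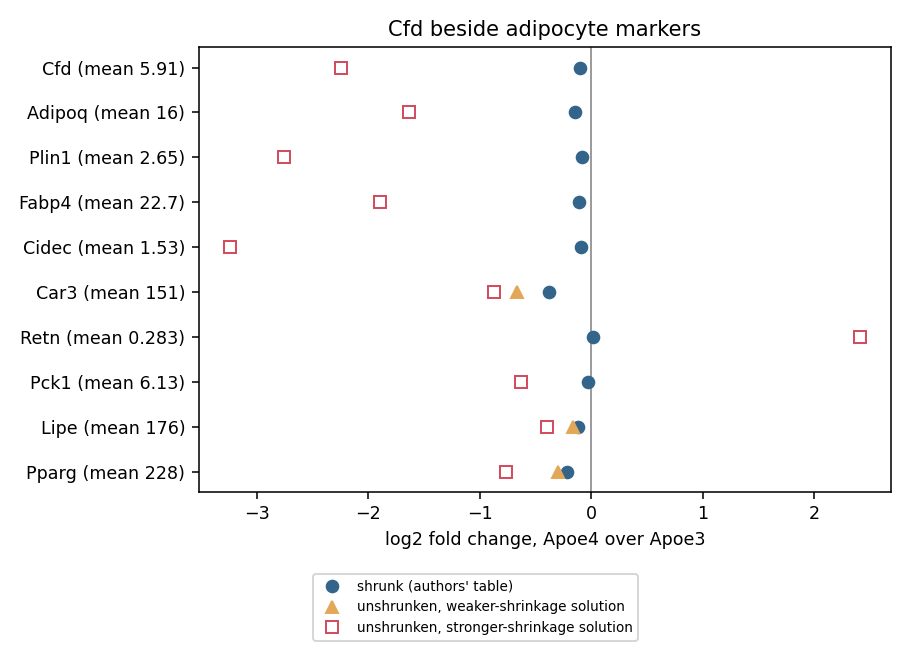
Log2 fold change in Apoe4 over Apoe3 (x axis) of Cfd and of the 9 adipocyte markers with a fold, each with its mean normalized count. Circles are the authors' shrunken values, triangles and squares the unshrunken values that the deposited error allows. Cfd, Adipoq, Plin1, Fabp4 and Cidec sit close to 0 as deposited and between -1.64 and -3.24 without shrinkage, and Retn, with a mean of 0.283, lies on the other side at 2.41.

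The membrane regulators were the best expressed members, and neither passed the test. Cd55, on chromosome 1 (130429798 to 130465009), had a mean of 1677 per the authors' deposited table and a log2 fold change of 0.06 (SE 0.08, 95% interval -0.10 to 0.22, adjusted p = 0.855). Cd59a, on chromosome 2 (104095753 to 104115410), had a mean of 778 and stood at -0.04 per the authors' deposited table (SE 0.08, 95% interval -0.19 to 0.12, adjusted p = 0.906). These were the narrowest intervals among the 8 tested members, on the shrunken scale. The stronger unshrunken solutions, 0.33 for Cd55 and -0.23 for Cd59a, lie outside them. The width thus does not say how well these folds are known. The copies Cd55b, with a mean of 4.38, and Cd59b, with a mean of 12.5 per the authors' deposited table, were far less abundant. Of the 150-base windows of Cd55, 2.25% occur in Cd55b, and none of those of Cd59a occur in another gene.

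C3ar1, the receptor through which C3a acts on myeloid and other cells, lies on chromosome 6 (122847140 to 122856157). It had a mean of 61.2 and a log2 fold change of 0.09 per the authors' deposited table (SE 0.10, 95% interval -0.11 to 0.30, adjusted p = 0.809). The receptor gene is known from macrophages and microglia, and none of 12 markers of these cells changed by the DESeq2 test (2 at an unadjusted p under 0.05). Of the 12, 7 had negative and 5 positive folds, with a median log2 fold change of -0.04. The 2 were Aif1, a calcium-binding protein of these cells, at -0.22, and Fcgr1, an antibody receptor, at -0.21 per the authors' deposited table (adjusted p = 0.439 and 0.464, named after their values were seen). Csf1r, the growth factor receptor of macrophages, stood at 0.06 per the authors' deposited table (adjusted p = 0.870).

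Beyond the members, the wider pathway was also without a call. Of 59 complement genes in 6 role lists, 39 were tested, 0 rose and 0 fell by the authors' DESeq2 test, and 4 had an unadjusted p under 0.05. Those 4 make 10.3% of the 39, the same share as over all genes tested. Positive folds were 19 and negative ones 20, with a median of -0.01. The 31 tested genes that are no members had a median of -0.01, with 13 positive and 18 negative.

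Initiators of the classical and lectin routes ranged from -0.18 to 0.23 over 11 tested genes. The collectin Colec11 stood at -0.18 (adjusted p = 0.411) and the mannose-binding lectin Mbl2 at 0.23 (adjusted p = 0.420) per the authors' deposited table. C1rl, a protease related to C1r, was at 0.17 (adjusted p = 0.562) and C1qb, a chain of C1q, at -0.15 (adjusted p = 0.576) per the authors' deposited table. The pattern recognition genes of the lectin route thus went both ways, none past the threshold. Of 6 terminal components, which build the membrane pore, 2 were tested, C8g at -0.18 (adjusted p = 0.558) and C9 at -0.06 (adjusted p = 0.894) per the authors' deposited table. The other 4 had means of no more than 1.55 normalized counts, were marked low by the authors and had no adjusted p. Hc, which codes for C5, had a mean of 5.15 per the authors' deposited table and was marked low too.

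Soluble regulators held the 2 highest levels per length in the pathway. Clu, the chaperone clusterin, had the highest level of the 59 genes (4259 per kb) and stood at 0.09 per the authors' deposited table (adjusted p = 0.707). Serping1, the inhibitor of C1r and C1s, was next with 981 per kb and stood at -0.04 (adjusted p = 0.903). Cr1l, the rodent membrane regulator Crry, stood at 0.05 (adjusted p = 0.853), and Cd59b and Cd46 at -0.06 and 0.05 (adjusted p = 0.837 and 0.842) per the authors' deposited table. Among receptors C1qbp was at -0.17 (adjusted p = 0.377), and the integrin chains Itgax at -0.15, Itgb2 at 0.14 and Itgam at 0.14 per the authors' deposited table had adjusted p from 0.625 to 0.666. None of these 5 soluble regulators, 8 membrane regulators and 7 receptors tested passed.

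**Figure D4:**
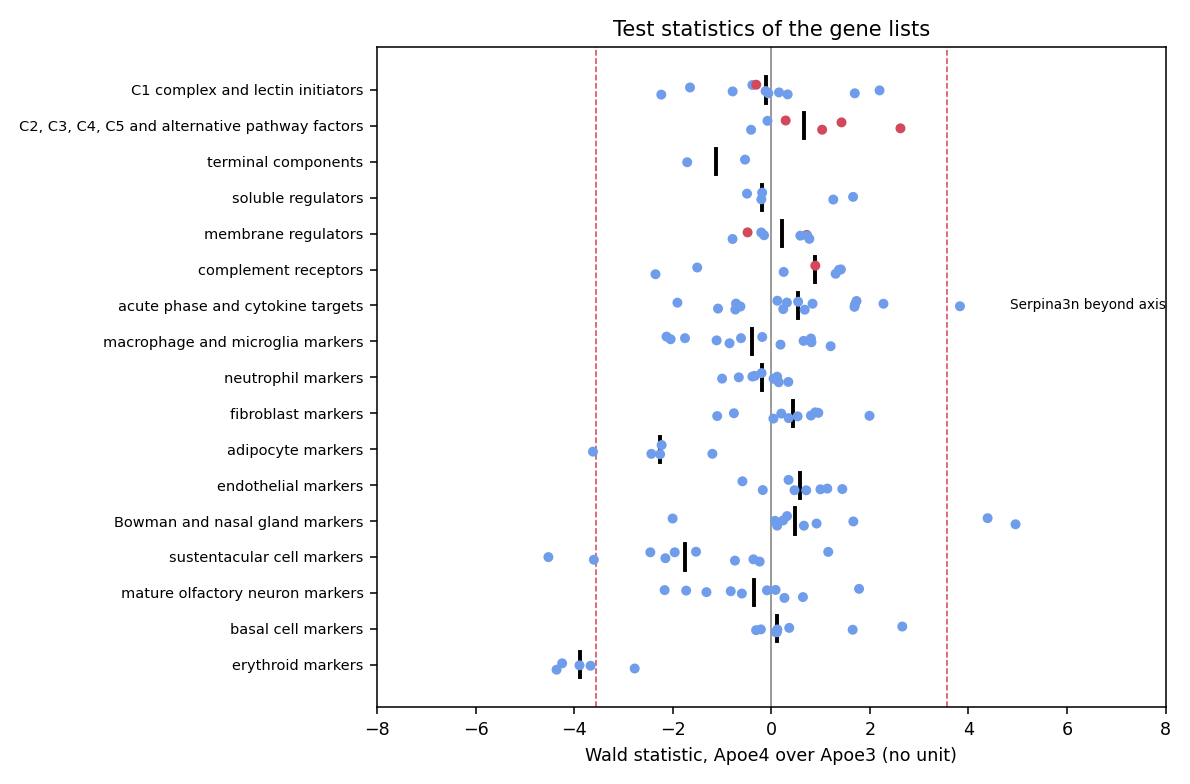
Wald statistic of each tested gene (x axis, positive is higher in Apoe4) by gene list, members in red, with the median of each list as a black bar and the smallest called statistic, 3.56 on either side, as dashed lines. No complement gene lies outside the dashed lines, while genes of the acute phase, adipocyte, gland, sustentacular and erythroid lists do, Serpina3n beyond the axis.

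Acute phase genes are often raised by the same cytokines as C3, C4b and Cfb, and 2 serpins of that list changed. Of 25 such genes 17 were tested, 2 rose and 0 fell, beside a share of 0.779% called over all genes tested. Folds were positive for 12 of the 17, and 3 had an unadjusted p under 0.05 by the DESeq2 Wald test (17.6%), against 10.3% of all genes tested. Serpina3n, a secreted protease inhibitor, rose by 1.50 (log2), and Serpina3m, from the same gene cluster, by 0.32, per the authors' deposited table (adjusted p = 1.2e-91 and 0.0208). Serpina3m had a mean of only 20.9, was left out by a minimum mean of 50 and was not called against a fold of 1.2. Cp, ceruloplasmin, stood at 0.22 (adjusted p = 0.399), Socs3, a feedback inhibitor of cytokine signalling, at 0.15 (adjusted p = 0.554) and Nfkbia, the NF-kB inhibitor, at -0.15 (adjusted p = 0.497) per the authors' deposited table. The list had a median log2 fold change of 0.05. Beside the rise of Serpina3n, C4b was at 0.25, Cfb at 0.14 and C3 at 0.10 per the authors' deposited table, none past the threshold. Whether a shared signal lies behind these values was not tested.

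Genes around the members were called at a rate near the background. Within 250 kb of the 9 genes, 105 other genes were tested and 1 was called (0.952%, beside 0.779% over all genes tested), Gpx4, a glutathione peroxidase near Cfd, at -0.35 per the authors' deposited table (adjusted p = 0.0236). It was not called with the length trend removed or against a fold of 1.2. Around C4b, C2 and Cfb, in the class III part of the major histocompatibility complex, 39 other genes were tested, with folds from -0.19 to 0.21 and a median of 0.01. The shrunken fold of C4b, at 0.25 the largest of the members, lay above all 39. This order need not hold without shrinkage, and it was not tested whether C4b differs from these genes. The nearest tested neighbours of C4b, Tnxb and C4a, stood at 0.07 and -0.01 per the authors' deposited table (adjusted p = 0.862 and 0.988). Next to C2 and Cfb lie Nelfe, at 0.04, and Skiv2l, at -0.01, and next to C3 lie Trip10, at 0.07, and Gpr108, at -0.05 per the authors' deposited table. Beside Cfd, Med16 stood at -0.12 and Elane at -0.02, and beside C3ar1, Foxj2 at 0.09 and Necap1 at -0.03. Folds were positive for 8 of the 28 genes tested around Cfd, with a median of -0.06. Over all 105 they were positive for 52. What this has to do with the value of Cfd was not tested. The nearest tested genes to Cd55 were Thsd7b at 0.26 (adjusted p = 0.116) and Pfkfb2 at 0.04, and those to Cd59a were Cd59b at -0.06 and D430041D05Rik at 0.13 per the authors' deposited table. Around C1ra and C3ar1, which share chromosome 6, 14 and 6 other genes were tested, and none was called.

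Markers of the other cells that the tissue holds moved in some lists. Over 10 marker lists 86 genes were tested, of which 2 rose and 7 fell, beside a share of 0.779% called over all genes tested. Of the 86, 22 had an unadjusted p under 0.05 by the DESeq2 Wald test (25.6%), against 10.3% of all genes tested. The 2 that rose were the gland proteins Bpifb4 at 0.34 and Bpifb1 at 0.43, and among the lower ones besides Car3 were the supporting cell enzymes Cbr2 at -0.26 and Aldh1a7 at -0.27 and the red cell genes Alas2 at -0.46, Slc4a1 at -0.27 and Car1 at -0.25 per the authors' deposited table. Against a fold of 1.2 none of these marker calls was kept, Bpifb4 and Bpifb1 included. That test used the shrunken folds. Those of Cbr2 (0.836) and Car1 (0.843) lay within a change of 1.2, so neither could be called. Without shrinkage the values for Slc4a1 and Car1 came to about -2.71 and -2.46 on the log2 scale. The lost calls thus do not show changes under a fold of 1.2. Cbr2 was also lost with no filter on the mean and with the length trend removed, and Car1, with a mean of 14.4, with a mean of at least 50 and with the length trend removed. Alas2, which lies on the X chromosome, was left out without X and Y genes. The haemoglobin genes of the same red cell list, Hba-a1, Hba-a2, Hbb-bs and Hbb-bt, were listed at a mean of 0. No neutrophil, fibroblast, endothelial, mature neuron or basal cell marker was called by the DESeq2 test, with 0, 1, 0, 1 and 1 at an unadjusted p under 0.05. Of the tested markers, 5 of 5 red cell and 5 of 10 supporting cell genes had such a p. So had 3 of 10 gland and 4 of 5 adipocyte genes. Col1a1 (adjusted p = 0.995), Pecam1 (adjusted p = 0.935), S100a8 (adjusted p = 0.937), Bpifa1 (adjusted p = 0.989) and Krt5 (adjusted p = 0.576) did not pass per the authors' deposited table. Fibroblasts are a known source of complement in tissues, and the median log2 fold change of their 10 markers was 0.04. The part of these cell types in the members' values was not tested.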

How the data were processed

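Libraries (4 Apoe3, 6 Apoe4) were aligned and counted with STAR and featureCounts and tested with DESeq2 on GRCm38, per the submitters' processing notes, which state no version or setting. The mean that the authors deposited for each gene is a signal, namely read counts divided by size factors and averaged over 10 libraries. The log2 fold changes and log2 errors the authors deposited were shrunk. The deposited score is the Wald statistic, fold over error. The deposited p-values were adjusted by the authors over 16050 genes, leaving out those marked low (means up to 9.99). Genes not marked low could lack an adjusted p too, as Xist did, which had no p either. Gene tests are thus the authors' own. The count test planned for values per library was not run.

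The direction of the folds comes from 517 genes with 1 read in 1 library. Their means take 10 levels, 1 for each size factor, 6 with positive and 4 with negative folds, the numbers of Apoe4 and Apoe3 libraries. Depth is estimated as a size factor times the sum of the means. Unshrunken folds assume a normal prior, for which the error peaks at a ceiling (0.105 here) and each error allows 2 shrinkage factors. A factor that needs less than Poisson noise was dropped. This form predicts an error of 0.0106 for a gene with 1 read, and the lowest deposited error is 0.0107.

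Positions are from RefSeq on GRCm38.p6, and lengths, exons and 150-base windows from GENCODE vM21 (a length for 15503 tested genes, by symbol). The window length was a chosen setting, and shorter reads could be shared between copies more often. The trend with length was a lowess curve of fraction 0.3. Python 3.11.15, scipy 1.17.1 and statsmodels 0.14.6 were used, and scripts were tested on simulated data. The members and gene lists were chosen with earlier results of these data known. Named are the members, called genes of each list, up to 4 per complement list and 3 of the acute phase list with the smallest p, 1 defining marker per cell type and the 2 tested genes nearest to each member. Of the genes so chosen, 2 are counted in their lists but not reported here. Plin1, Cidec, Retn, Lep, Fabp4, Pparg, Hc, C1s1, the haemoglobin genes and the near copies were named after their values were seen. The design text calls the samples biological replicates without saying that each is 1 animal, so p-values measure the spread between these libraries.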

Additional observations from a re-analysis of the deposited data

How the results depend on the processing

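No complement gene tested was called under 5 alternatives, but these are not 5 separate checks. Changing the filter on the mean and leaving out X and Y genes only adjusted the same deposited p-values anew. The largest shrunken fold of a tested complement gene, in either direction, was 1.19 for C4b. The test against a fold of 1.2, which used shrunken folds for every gene, could therefore call none of them. With no filter on the mean, 9 members and 59 pathway genes were tested. The others, a mean of at least 50, no X and Y genes, the length trend removed and a test against a fold of 1.2, tested 8 members, without Cfd, and 27 to 39 pathway genes. Leaving aside the test against a fold of 1.2, the adjusted p of C4b ran from 0.273 to 0.638. That of the other 7 tested members ran from 0.621 to 0.997. Once the length trend was subtracted, the sign of Cd59a turned positive (adjusted p = 0.997). The called acute phase genes went from 2 to 1 with a mean of at least 50, which leaves fewer genes tested, and to 1 against a fold of 1.2. Called cell type markers went from 9 to 5 with the length trend removed and to 0 against a fold of 1.2, and the called neighbour from 1 to 0 in both. The cause was not tested. Undoing the shrinkage gave 2 solutions for C4b, 0.34 and 0.89 on the log2 scale, and the deposited errors do not say which holds. For Cfb they were 0.19 and 0.47, for C3 0.15 and 0.32, for Cd55 0.07 and 0.33, and for C3ar1 0.17 and 0.21. C2 had 0.03 and 0.12, C1ra -0.04 and -0.10, and Cd59a -0.05 and -0.23. No paired analysis was possible because the table holds no values per library, and for the same reason no library could be left out. Those alternatives were not run.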
